A study of Homo sapiens with 30 samples.

Results

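The proteasome genes described here are all genes of the table whose symbol is PSM followed by 1 letter from A to G and a number. There are 43 of them among 16975 genes. By role they are 7 alpha and 7 beta subunits of the 20S core, the inducible beta subunit PSMB9, 6 ATPase and 11 non-ATPase subunits of the 19S particle, 2 chaperones of base assembly (PSMD9 and PSMD10), 5 activators or regulators, and 4 chaperones of core assembly. PSMA8, PSMB8, PSMB10, PSMB11 and PSMD5 were not analysed here. All 43 are protein-coding genes of GENCODE (GRCh38) and lie on 17 chromosomes, so that the set is not 1 locus.

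The study measured messenger RNA by 3' RNA-seq, which reads a tag near the 3' end of a transcript, in untreated cultures at about 70% confluency. HEK28 is a HEK293 (human embryonic kidney) derivative that secretes coagulation factor VIII, and the series asks how loss of single genes bears on that secretion. The 10 groups of 3 libraries were HEK28 without a knockout, the parental HEK line, and HEK28 after CRISPR knockout of 1 gene. That gene was CANX, CALR, LMAN1 or MCFD2, here called secretory genes, or 1 of the autophagy genes ATG7, GABARAP, GABARAPL1 and GABARAPL2. All groups but the parental line therefore share the factor VIII background, and each knockout is 1 line whose clonal origin the labels do not give. Calnexin (CANX) and calreticulin (CALR) are chaperones that bind sugar chains (lectins) in the endoplasmic reticulum, MCFD2 and LMAN1 make up a receptor that carries factor VIII out of it, and the GABARAP proteins and ATG7 act in autophagy. The labels do not tell whether replicates were cultured apart, and p-values therefore speak only of the spread between these libraries, which may be technical.

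The 26S proteasome degrades proteins that carry ubiquitin chains. Its 20S core is a barrel of alpha and beta rings whose catalytic sites sit on PSMB5 (chymotrypsin-like), PSMB6 (caspase-like) and PSMB7 (trypsin-like). The 19S particle binds and unfolds substrates with a ring of ATPases and removes ubiquitin with PSMD14. Autophagy is the other large route of protein breakdown, and proteins that misfold in the endoplasmic reticulum are passed to the proteasome in the cytosol. When proteasome activity is low, the transcription factor NFE2L1 raises proteasome genes together through antioxidant response elements in their promoters.

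The recovered reads in genes ran from 138824 to 3716743 per library, with a median of 572722. Proteasome genes had medians of 4.5 (PSMB9) to 496 reads per library, 6 of them had a median under 20, and 3 had a library at 0. After a filter on low values 42 of the 43 were tested, PSMB9 being too low. HEK28 replicates 1 and 2 stood apart from replicate 3, as described below, and the results on proteasome genes that use HEK28 are given with and without them. With all 3 HEK28 libraries, levels of CANX, CALR, LMAN1 and MCFD2 were lower in their own knockouts than in HEK28 (log2 differences of -1.21, -3.25, -2.83 and -0.88, limma adjusted p = 2.26e-05, 5.84e-08, 7.97e-07 and 0.0319). The differences of GABARAP (-1.07, adjusted p = 0.161), GABARAPL1 (-0.48, 0.476), GABARAPL2 (0.34, 0.631) and ATG7 (-0.99, 0.241) did not pass the test in limma. The labels give no edited position, and a 3' tag outside an edited stretch does not check a knockout. Of the HEK293 markers VIM had the most reads over the 30 libraries, 13917. KRT18 had 1352, KRT8 895, SALL1 498, LHX1 453, SALL2 200 and PAX2 72. LHX1 had reads in 28, SALL2 in 22 and PAX2 in 21 libraries, and the reads of NEFL and NEFM were not resolved. None of 5 liver markers was in the table. Of 6 blood cell markers 4 were in the table, at 0 to 122 reads per 1000000, and each group held a library under 6.

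A sequence from 250 bases before each start was read from RefSeq (GRCh38.p14) for 37 of the 43 genes. Those of 4 genes are shown because the results turn on them: PSMB5 and PSMD14 were higher in HEK28 than in the parental line, PSMD9 was lower, and PSMB3 had the largest difference that passed in the GABARAPL2 knockout against the other 7 knockouts. Capitals mark 3 motifs searched on both strands: TGACNNNGC (the antioxidant response element), CCAAT (the CCAAT box) and CCGGAAG (a site for ETS factors). The windows are chr14:23035221-23035470 (minus strand) for PSMB5, chr2:161308175-161308424 (plus) for PSMD14, chr17:38752491-38752740 (plus) for PSMB3 and chr12:121888540-121888789 (plus) for PSMD9, each written 5′ to 3′ along its gene.
PSMB5: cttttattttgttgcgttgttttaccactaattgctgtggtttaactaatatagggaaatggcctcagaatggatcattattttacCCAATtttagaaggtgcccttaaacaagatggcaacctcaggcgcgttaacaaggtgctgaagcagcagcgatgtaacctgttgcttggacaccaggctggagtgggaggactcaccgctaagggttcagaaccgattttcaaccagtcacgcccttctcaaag
PSMD14: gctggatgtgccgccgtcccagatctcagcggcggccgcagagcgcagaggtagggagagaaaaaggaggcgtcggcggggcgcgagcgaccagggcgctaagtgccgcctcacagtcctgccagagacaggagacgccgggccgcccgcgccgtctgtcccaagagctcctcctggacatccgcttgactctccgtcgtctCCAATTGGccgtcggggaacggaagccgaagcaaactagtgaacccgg
PSMB3: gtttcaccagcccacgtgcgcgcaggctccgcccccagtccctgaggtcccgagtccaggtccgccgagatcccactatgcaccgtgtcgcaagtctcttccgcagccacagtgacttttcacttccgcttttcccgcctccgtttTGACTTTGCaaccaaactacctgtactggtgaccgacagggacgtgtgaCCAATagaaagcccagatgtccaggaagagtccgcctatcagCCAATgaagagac
PSMD9: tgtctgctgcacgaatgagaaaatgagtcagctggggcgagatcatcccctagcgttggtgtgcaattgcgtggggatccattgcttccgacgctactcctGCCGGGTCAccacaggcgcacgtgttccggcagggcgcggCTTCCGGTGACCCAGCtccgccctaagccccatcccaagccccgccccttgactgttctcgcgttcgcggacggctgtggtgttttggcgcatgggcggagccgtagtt
In the PSMB5 window 1 CCAAT box was found and no other motif. PSMD14 held CCAAT on both strands, in overlapping letters. PSMB3 held 1 antioxidant response element and 2 CCAAT boxes, and PSMD9 held that element once on each strand and 1 ETS site, which ends where an element begins and shares no letter with it. Over all 37 windows TGACNNNGC was present in 10 (27.0%), against 11.0% of 27305 promoters of the same length. CCAAT was present in 17 (45.9%) against 33.0%, and CCGGAAG in 9 (24.3%) against 8.8%. The first listed start of each gene was used. The 27305 promoters were not selected by gene type, while all 43 proteasome genes are protein-coding, so the 2 sets are not matched. Of the 13 windows of genes that were higher in HEK28 than in the parental line, 1 held TGACNNNGC, 6 held CCAAT and 2 held CCGGAAG. A match is a string of letters and not a shown binding site.

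Summed to 1 quantity, the messages of the 43 genes made up about 1% of the reads in genes of every HEK28-derived line and less in the parental line. Their summed reads per 1000000 were 10380, 10300 and 10344 in HEK28 (mean 10341 ± 40, SD, n = 3) and 5883, 6244 and 6287 in the parental line (6138 ± 222). The groups do not overlap. Among the knockouts the sum was 10608 ± 103 for GABARAP, 10028 ± 313 for LMAN1, 9809 ± 306 for GABARAPL1, 9318 ± 182 for CANX, 9171 ± 311 for ATG7, 9159 ± 105 for GABARAPL2, 8657 ± 115 for CALR and 8583 ± 215 for MCFD2. In this order CALR and MCFD2, and CANX, ATG7 and GABARAPL2, do not differ beyond their spread, and LMAN1 overlaps GABARAPL1. Only the GABARAP mean lay above the HEK28 mean, and the LMAN1 libraries overlapped those of HEK28. In 3' libraries a sum weighs the abundant messages most. In such bulk samples fewer cells with a message and less message per cell cannot be told apart.

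**Figure D1:**
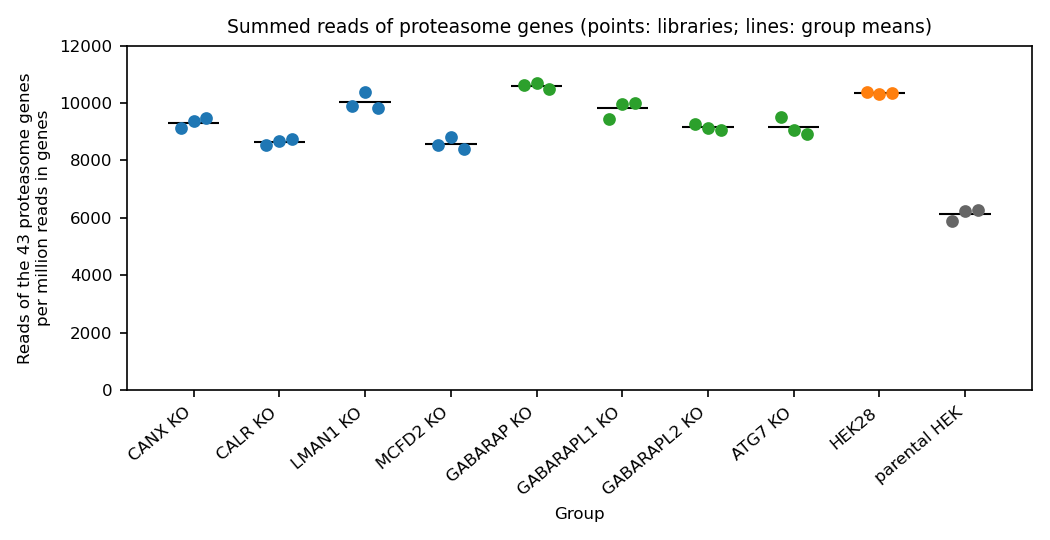
Summed reads of the 43 proteasome genes per 1000000 reads in genes (y axis) for the 3 libraries of each group (points) with the group mean. The parental libraries lie at 5883 to 6287, and the knockout and HEK28 libraries at 8388 to 10702.

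In this sum the parental line lay apart from the lines derived from it. Over the single genes, the question was whether the proteasome differs in cells made to secrete factor VIII. HEK28 is 1 line, so factor VIII secretion cannot be told apart from other differences between it and the parental line. The same holds for the knockout lines, which were made from HEK28. Against parental HEK, 17 of the 42 tested genes were higher in HEK28 and 2 were lower, where 32.0% of all 11275 tested genes passed (16.8% higher, 15.2% lower) at an adjusted p under 0.05 in limma. The median log2 difference of the 42 was 0.43, against -0.07 for all tested genes. In 17 of the 19 that passed the libraries of HEK28 and of the parental line did not overlap. No share over all tested genes is given for this, and it is not read as particular to proteasome genes. Without HEK28 replicates 1 and 2, a comparison of 1 HEK28 library that is assumed to vary like the other groups, 26 were higher and 1 lower, where 22.0% of all genes passed. The median then was 0.92, and 15 of the 19 first calls were kept.

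The 3 catalytic subunits were among the genes that passed. PSMB5 had log2 levels of 9.29, 8.99 and 9.07 in HEK28 and 7.91, 8.04 and 8.09 in the parental line, a difference of 1.10 ± 0.14 (SE, limma adjusted p = 2.36e-06). PSMB6 had 4.31, 4.53 and 4.50 against 2.53, 3.18 and 3.16, a difference of 1.49 ± 0.21 (adjusted p = 9.85e-06). For PSMB7 the levels were 5.98, 5.76 and 5.64 against 3.61, 4.05 and 4.52, a difference of 1.73 ± 0.21 (adjusted p = 1.39e-06). In each of them all HEK28 libraries lay above all parental libraries, and without HEK28 replicates 1 and 2 the differences were 1.06, 1.54 and 1.58. The deposited values are divided by gene length, while a 3′ library reads near the end of each transcript, so levels of different genes are not compared here.

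Genes of other parts of the complex passed too. PSMA4, an alpha subunit, was at 7.33, 6.98 and 7.07 in HEK28 and at 5.39, 5.48 and 5.83 in the parental line (difference 1.56 ± 0.18, limma adjusted p = 6.69e-07). PSMD14, the deubiquitinase of the 19S lid, was at 11.54, 12.04 and 11.23 against 9.73, 10.14 and 10.14 (1.60 ± 0.16, adjusted p = 7.59e-08). The difference of PSMD7, the lid partner of PSMD14, was 1.71 ± 0.42 (adjusted p = 0.00339), from 52 parental and 98 HEK28 reads. By role, 2 of 7 alpha subunits, 4 of 7 beta subunits, 3 of 6 ATPases, 5 of 11 non-ATPase subunits, 2 of 5 activators or regulators and 1 of 4 core chaperones were higher. The median log2 difference was -0.23 for the alpha subunits (3 of 7 positive), 1.10 for the beta subunits (5 of 7), 0.73 for the ATPases (4 of 6), 0.82 for the non-ATPase subunits (11 of 11) and -1.11 for the base assembly chaperones (0 of 2). These counts and medians by role use all 3 HEK28 libraries. In HEK28 replicate 3 PSMA1, PSMA2, PSMA3 and PSMA5 were at 4.01, 8.37, 4.14 and 5.87, above parental means of 3.21, 7.42, 3.46 and 3.98. PSMD10 was at 7.83 against 6.57, while PSMA6 turned the other way (3.11 against 3.21). Without replicates 1 and 2 the difference was positive in 38 of the 42 tested genes, and with them in 30. Fitted on the 6 libraries of these lines only, 7 proteasome genes were higher and 1 lower (4.9% of all tested genes passed). PSMC1, an ATPase, had the largest positive difference, 1.98 ± 0.29 (adjusted p = 1.74e-05), but its HEK28 levels of 10.61, 10.73 and 9.09 were uneven, and without replicates 1 and 2 the difference was 0.94 (adjusted p = 0.0245).

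The 2 lower genes were PSMD9 and PSMC2. PSMD9, a chaperone that pairs ATPases before they enter the 19S base, was at 8.05, 7.07 and 8.88 in HEK28 and at 10.07, 9.89 and 9.88 in the parental line (difference -1.95 ± 0.29, limma adjusted p = 1.51e-05). Without HEK28 replicates 1 and 2 it was still lower, by -1.07 (adjusted p = 0.00693). PSMC2, an ATPase, differed by -1.18 ± 0.44 (adjusted p = 0.0462) on 18 HEK28 and 75 parental reads, with overlapping libraries, and by -0.40 (adjusted p = 0.687) without them. Leaving out HEK28 replicate 1 or 2, or parental replicate 2 or 3, also ended this call, with differences of -0.97, -0.99, -0.67 and -1.01 and adjusted p from 0.138 to 0.284. Its parental levels were 5.27, 7.60 and 6.93.

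The 8 knockout lines, which use no HEK28 library, were set against the same 3 parental libraries. This comparison was added after values had been seen. Of the 42 genes 29 were higher in the mean of the 8 knockouts than in parental HEK and 0 were lower. Of all tested genes 37.5% passed (24.0% higher). In 13 of the 29 the 24 knockout and the 3 parental libraries did not overlap, again without a share over all genes. The median log2 difference was 0.71, against 0.10 for all tested genes. All 7 constitutive beta subunits and 10 of 11 non-ATPase subunits passed. PSMB3 (1.64 ± 0.33, limma adjusted p = 0.000459), PSMB6 (1.63 ± 0.16, 2.44e-08), PSME1 (1.57 ± 0.18, 3.92e-07), PSMB7 (1.52 ± 0.16, 8.37e-08), PSMD10 (1.52 ± 0.38, 0.00268) and PSMA5 (1.45 ± 0.55, 0.0401) had the largest differences. PSME1 encodes a subunit of the 11S activator and PSMD10 the assembly chaperone gankyrin. PSMA5 passed on 11 parental reads and did not pass without any 1 of the 3 parental libraries (adjusted p 0.0785 to 0.15), and PSMD10 did not without parental replicate 1 (1.14, adjusted p = 0.0548).

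Both comparisons rest on the 3 parental libraries, and other measures move with them. The library sizes behind the deposited values were larger than the reads in genes by 0.11 to 0.26 on the log2 scale in the parental libraries and by -0.13 to 0.16 in the others. With library sizes set by the reads in genes (voom), the median of all tested genes moved from 0.10 to -0.09, and 19 proteasome genes were higher and 1 lower in the 8 knockouts (12.4% and 21.7% of all genes), with a median of 0.55. For HEK28 the same scaling moved the median of all genes from -0.07 to -0.22 and gave 15 higher and 2 lower (8.53% and 12.2% of all genes), with a median of 0.33. Of 6 fibroblast markers the 2 in the table, COL1A1 and COL3A1, summed to 41.9 to 52.2 reads per 1000000 in the parental line and to 3.21 to 35.2 elsewhere. Their part in the result was not tested.

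**Figure D2:**
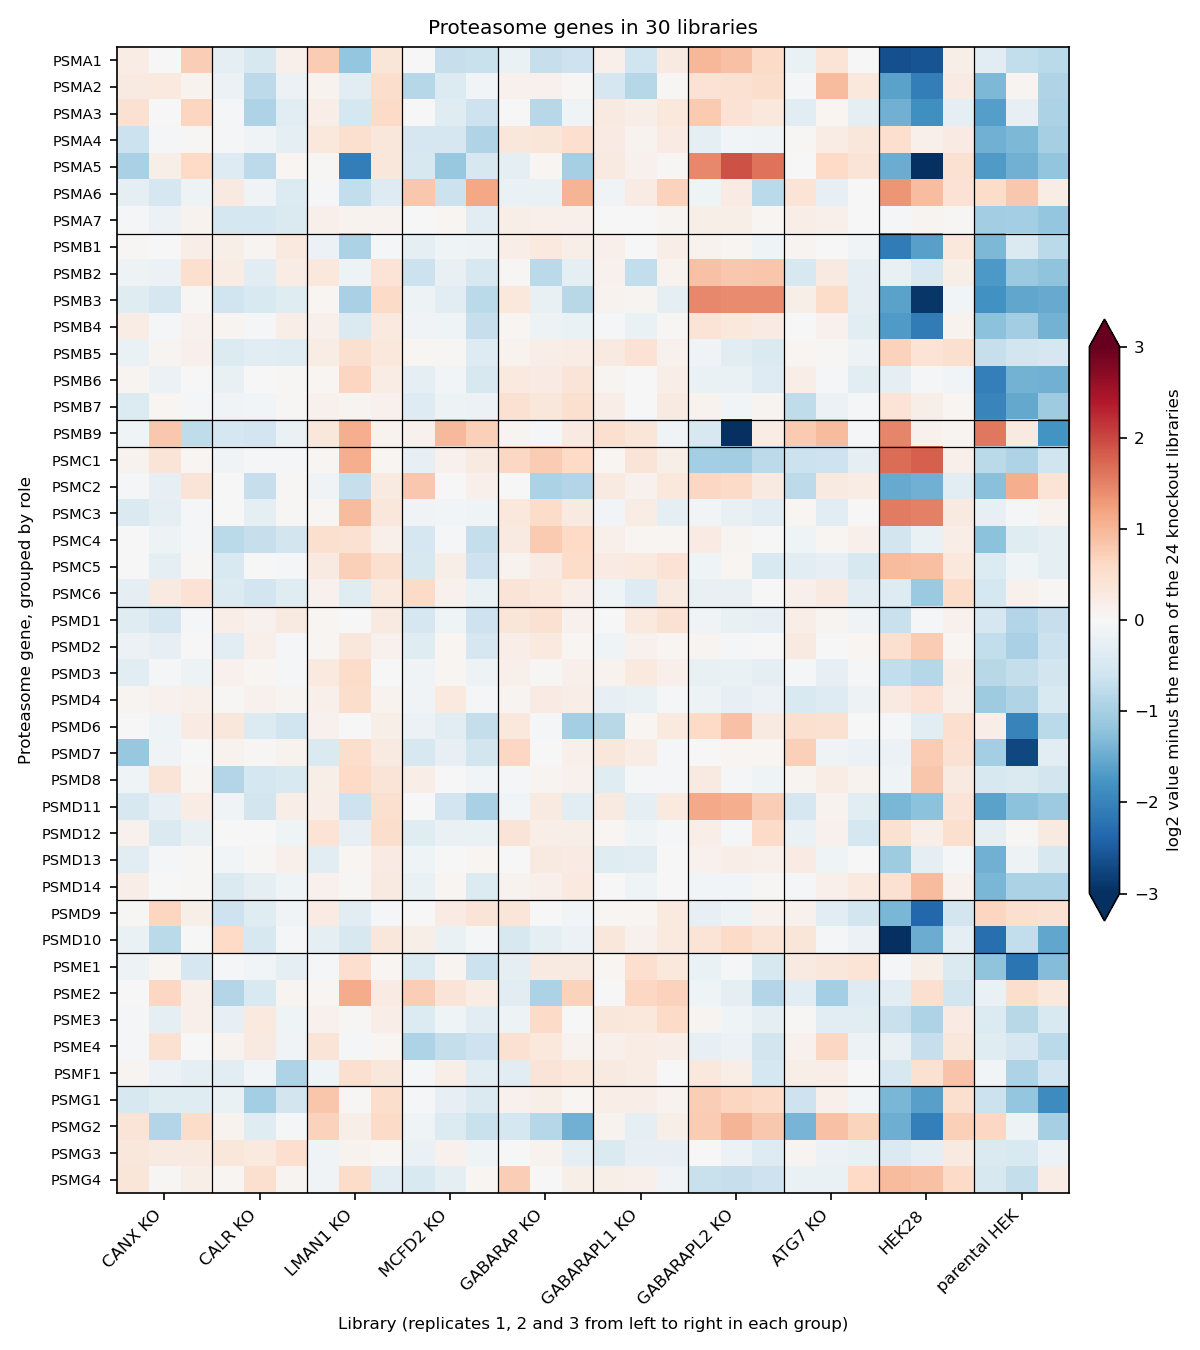
Log2 level of each proteasome gene (rows, ordered by role) in each of the 30 libraries (columns, by group), drawn as the difference from that gene's mean over the 24 knockout libraries. Most genes are low in the 3 parental columns, and HEK28 replicates 1 and 2 show low and high genes that replicate 3 does not.

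The HEK28 libraries themselves disagreed, which bears on every comparison of a knockout with HEK28. Set against the range of the 24 knockout libraries, HEK28 replicate 1 was below the range in 16 and above it in 9 of the 43 genes, and replicate 2 was below in 16 and above in 8. Replicate 3 was below in 0 and above in 3 (PSMB1, PSMB5 and PSMF1). Over all tested genes the shares below and above were 21.5% and 13.7% for replicate 1, 19.0% and 14.9% for replicate 2, and 7.42% and 6.07% for replicate 3. Both replicates 1 and 2 were below in the same 14 genes (PSMA1, PSMA2, PSMA3, PSMB1, PSMB3, PSMB4, PSMC2, PSMD3, PSMD9, PSMD10, PSMD11, PSME3, PSMG1 and PSMG2) and above in the same 6 (PSMC1, PSMC3, PSMC5, PSMD2, PSMD14 and PSMG4). The ATPases thus split, with PSMC2 low and PSMC1, PSMC3 and PSMC5 high in the same libraries, while the summed reads of the 3 libraries differed by less than 1%.

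Single genes show the size of this spread. PSMB1, a beta subunit, had log2 levels of 9.55, 10.01 and 11.96 in HEK28, and 10.70 to 11.93 with a median of 11.68 in the 24 knockout libraries. PSMB4 was at 5.61, 5.23 and 7.42 against 6.64 to 7.74, and PSMA1 at 1.19, 1.24 and 4.01 against 2.67 to 4.83. PSMC1 was at 10.61, 10.73 and 9.09 against 7.88 to 10.03, and PSMC3 at 11.27, 11.23 and 9.99 against 9.29 to 10.68. In all 5 genes replicates 1 and 2 lay outside the knockout range on 1 side, and replicate 3 lay within it or, for PSMB1, just above it. PSMB1 rested on 17, 60 and 171 HEK28 reads and PSMC1 on 251, 685 and 162. LMAN1 replicate 2 had the lowest PSMA1 (2.67) and PSMB1 (10.70) and the highest PSMC1 (10.03) and PSMC3 (10.68) of the 24 knockout libraries. Its PSMB4 (6.89) was not the lowest, which was that of MCFD2 replicate 3 (6.64). Whole libraries were not ranked by their likeness to HEK28 replicates 1 and 2.

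Each knockout against HEK28 asks whether loss of a chaperone, a cargo receptor or an autophagy gene changed the proteasome. All 8 comparisons share the 3 HEK28 libraries, so that they are not independent. The share of all tested genes that passed in limma is given beside each count. In the CANX knockout (18.9% of all genes in either direction) 8 of 42 proteasome genes were higher (12.4% of all genes) and 6 lower (6.48%). In the CALR knockout (18.3%) 4 were higher (12.1%) and 7 lower (6.23%). In the LMAN1 knockout (5.47%) 3 were higher (4.51%) and 0 lower (0.958%). In the MCFD2 knockout (18.1%) 3 were higher (10.6%) and 8 lower (7.48%). Of the autophagy genes, GABARAP (5.68%) had 3 higher (4.04%) and 0 lower (1.64%). Its paralogue GABARAPL1 (9.9%) had 8 higher (7.09%) and 3 lower (2.81%). The GABARAPL2 knockout (26.3%) had the most, 14 higher (18.5%) and 8 lower (7.76%), and ATG7 (12.6%) had 7 higher (8.36%) and 5 lower (4.26%). The median log2 difference of the 42 genes ran from -0.18 (MCFD2) to 0.34 (LMAN1). Of the 87 calls over the 8 lines, 73 were in the 20 genes in which HEK28 replicates 1 and 2 both lay outside the knockout range. Those genes were picked by the same HEK28 and knockout values that the calls use, so this count is no separate evidence on the calls. With voom the counts higher and lower were 5 and 6 for CANX (13.4% of all genes passed), 5 and 4 for LMAN1 (5.11%), 6 and 6 for GABARAPL1 (6.64%) and 4 and 5 for ATG7 (6.1%). Fitted on its own 6 libraries only, each of the 8 lines gave 0 proteasome genes, and at most 0.186% of all tested genes passed (GABARAPL2).

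Gene by gene, PSMD9 was higher than HEK28 in 8 of the 8 lines, by 1.05 to 1.71 on the log2 scale. PSMB4 was higher in 7 (1.14 to 1.56), PSMB1 in 6 (1.12 to 1.36), PSMD10 in 6 (1.45 to 2.26) and PSMB3 in 4 (1.27 to 2.96). PSMC1 (-1.01 to -2.16) and PSMC3 (-1.16 to -1.36) were lower in 6 each, PSMC5 in 5 (-0.80 to -1.07), PSMB5 in 5 (-0.51 to -0.89) and PSMD14 in 4 (-0.56 to -0.79). Directions were mixed within roles, since PSMA6 and PSMG4 were lower in 2 lines each and PSMC2, an ATPase, was higher in 2. Against HEK28 replicate 3 alone the log2 difference of PSMD9 was positive in all 8 lines (0.18 to 0.83) and passed in none. That of PSMB1 was negative in all 8, and that of PSMB4 was positive in 1.

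Without HEK28 replicates 1 and 2 few calls were left. The share of all tested genes that passed again stands beside each. None passed for CANX (2.93%, with 2.32% higher and 0.603% lower), LMAN1 (1.3%, 1.2% and 0.106%), GABARAP (2.61%, 2.07% and 0.541%), GABARAPL1 (1.66%, 1.56% and 0.0976%) or ATG7 (2.24%, 1.91% and 0.328%). For CALR 0 were higher and 3 lower (5.42%, 4.01% and 1.41%), for MCFD2 0 and 2 (5.75%, 3.73% and 2.02%) and for GABARAPL2 0 and 2 (3.15%, 2.59% and 0.559%). The median log2 differences of the 42 genes then were -0.20 (CANX), -0.36 (CALR), 0.00 (LMAN1), -0.40 (MCFD2), -0.10 (GABARAP), -0.18 (GABARAPL1), -0.14 (GABARAPL2) and -0.18 (ATG7). The lower genes were PSMB5 (-0.85, limma adjusted p = 0.0103), PSMF1, the PI31 regulator (-1.30, 0.0361), and PSMA7 (-0.52, 0.0284) in CALR, PSMA4 (-0.88, 0.0383) and PSME4 (-1.08, 0.0392) in MCFD2, and PSMB5 (-0.77, 0.0254) and PSMC1 (-1.11, 0.0357) in GABARAPL2. No proteasome gene was higher in any knockout by this test, in which HEK28 is 1 library. With replicate 3 left out instead, 21 to 26 of the 42 genes passed in each of the 8. With all 3 HEK28 libraries, leaving out LMAN1 replicate 2 raised the LMAN1 count from 3 to 10, and leaving out replicate 1 lowered it to 0. No share of all tested genes stands beside these counts without 1 library, so they are not read as a result on proteasome genes.

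For the mean of the 4 autophagy-gene knockouts 13 genes were higher and 7 lower than in HEK28 (21.9% of all tested genes passed), and 0 and 0 without HEK28 replicates 1 and 2 (2.55%). With voom the split was 7 higher and 8 lower (9.97% of all genes passed). PSMA5 (2.24 ± 0.58, limma adjusted p = 0.00817), PSMD10 (1.90 ± 0.40, 0.00211), PSMB3 (1.86 ± 0.35, 0.00113), PSMA1 (1.76 ± 0.42, 0.00477), PSMD9 (1.39 ± 0.23, 0.000518) and PSMA2 (1.28 ± 0.33, 0.00854) had the largest positive differences. PSMC1 (-1.36 ± 0.23, 0.000607), PSMC3 (-1.11 ± 0.20, 0.000718), PSMG4 (-0.86 ± 0.21, 0.00658), PSMC5 (-0.70 ± 0.17, 0.00617), PSMB5 (-0.49 ± 0.11, 0.00383) and PSMD14 (-0.46 ± 0.13, 0.0115) had the largest negative ones. Without replicates 1 and 2 the differences of PSMA5, PSMA1 and PSMA2 turned to -0.02, -0.10 and -0.11, and that of PSMD9 was 0.51 (adjusted p = 0.371). That of PSMB5 stayed near its size at -0.44 (adjusted p = 0.24).

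For the 2 lectin chaperone knockouts, CANX and CALR, 9 genes were higher and 10 lower than in HEK28 (24.9% of all tested genes passed), and 0 higher and 1 lower without HEK28 replicates 1 and 2 (4.11%). With voom the split was 5 higher and 10 lower (15.7% of all genes passed). Fitted on the 9 libraries of these lines only, 0 were higher and 2 lower (5.3%). The largest positive differences were those of PSMA1 (1.74 ± 0.46, limma adjusted p = 0.00814), PSMD10 (1.63 ± 0.43, 0.0089), PSMD9 (1.38 ± 0.25, 0.000543), PSMB4 (1.33 ± 0.29, 0.00245), PSMB1 (1.26 ± 0.31, 0.00478) and PSMB3 (1.17 ± 0.39, 0.0304). The largest negative ones were those of PSMC3 (-1.27 ± 0.21, 0.000304), PSMC1 (-1.15 ± 0.26, 0.00264), PSMA6 (-1.09 ± 0.36, 0.028), PSMC5 (-0.85 ± 0.19, 0.00268), PSMB5 (-0.70 ± 0.12, 0.000434) and PSMD14 (-0.61 ± 0.14, 0.00298). The gene that passed both ways was PSMB5, with -0.66 (adjusted p = 0.0376) without the 2 libraries. The differences of PSMA1, PSMB4, PSMB1 and PSMB3 turned to -0.12, -0.01, -0.19 and -0.28. Leaving out HEK28 replicate 2 alone gave 8 calls in place of 19, and leaving out replicate 1 gave 10. Here too no share of all tested genes is given.

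**Figure D3:**
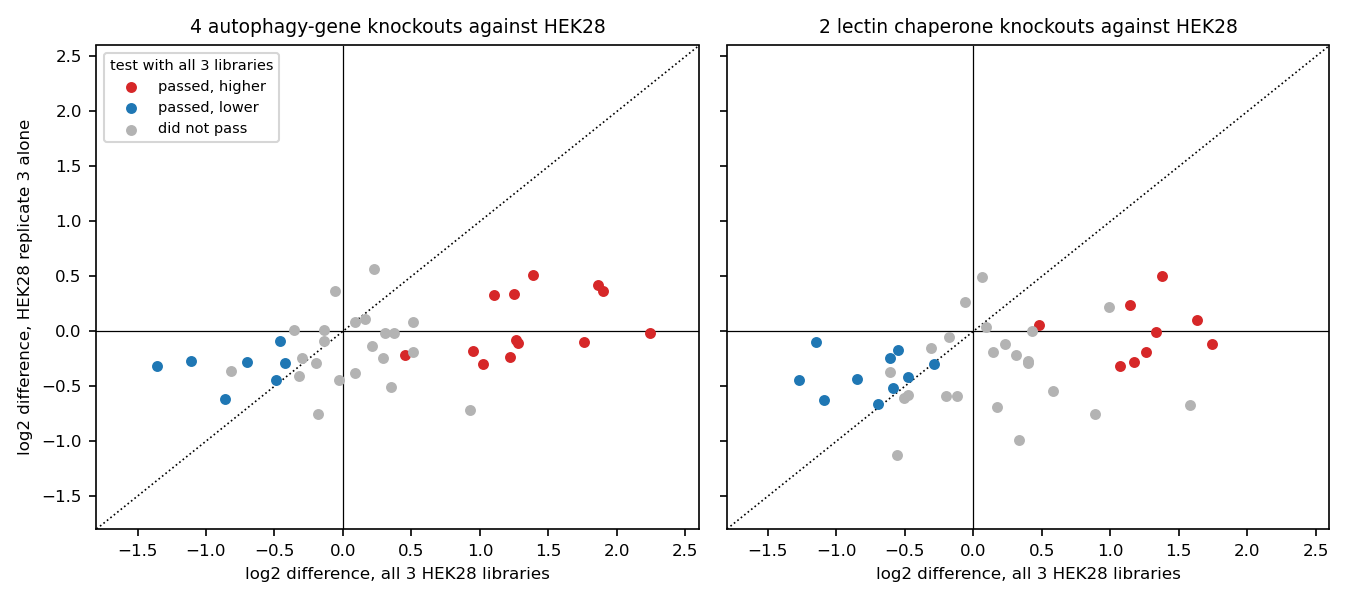
Log2 difference of the 42 tested proteasome genes from HEK28 with all 3 HEK28 libraries (x axis) and with replicate 3 alone (y axis), for the 4 autophagy-gene knockouts (left) and the 2 lectin chaperone knockouts (right). Colours mark the genes that passed with all 3 libraries, and the dotted line marks equal values. On the left PSMA5 moves from 2.24 to -0.02 and PSMC1 from -1.36 to -0.32, and most coloured points lie nearer to 0 on the y axis than on the x axis.

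Comparisons among the knockouts use no HEK28 library. The 4 autophagy-gene knockouts (GABARAP, GABARAPL1, GABARAPL2 and ATG7) were set against the 4 secretory-gene knockouts (CANX, CALR, LMAN1 and MCFD2), and few proteasome genes passed. Of 42 genes 3 were higher and 2 lower, where 4.88% of all tested genes passed, and 9 had an unadjusted p under 0.05. The log2 difference was positive in 33 of the 42 genes, with a median of 0.14 against 0.03 for all tested genes. With voom 6 were higher and 2 lower (15.4% of all genes passed), and the median was 0.11.

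The higher genes were PSMC4, PSMA4 and PSMA7. PSMC4, an ATPase, had mean log2 levels of 7.17 and 6.77 on the 2 sides (0.40 ± 0.11, limma adjusted p = 0.0423), PSMA4 6.99 and 6.68 (0.31 ± 0.09, 0.0472) and PSMA7, an alpha subunit, 10.01 and 9.77 (0.24 ± 0.05, 0.00714). PSMG3, a chaperone of core assembly (6.06 and 6.39, -0.33 ± 0.09, 0.0394), and PSMD4, a ubiquitin receptor (9.39 and 9.65, -0.26 ± 0.07, 0.0394), were lower. The libraries of the 2 sides overlapped in all 5 genes. The mean PSMA7 level was 9.40 in CALR, 9.80 in MCFD2, 9.85 in CANX and 10.01 in LMAN1. In the 4 autophagy-gene lines it ran from 9.93 to 10.05. The test takes its spread from libraries within lines, so 1 line can carry a call, which fits without 1 library cannot show. Leaving out 1 library at a time left 1 to 4 calls, and PSMA7 alone passed in every such fit, while PSMC4, PSMA4, PSMG3 and PSMD4 each lost the call in most of them. In 11 of the 24 fits PSMA7 was the 1 call left: those without CANX replicate 1, LMAN1 replicate 2, GABARAP replicate 3, GABARAPL1 replicate 1 or 2, GABARAPL2 replicate 2 or 3, ATG7 replicate 2, or any of the 3 CALR replicates.

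The CANX and CALR knockouts against the other 6 gave 1 higher and 2 lower genes (3.62% of all tested genes passed), and 8 genes had an unadjusted p under 0.05. PSMG3 was higher (6.57 and 6.11, 0.46 ± 0.11, limma adjusted p = 0.0158), and PSMC4 (6.59 and 7.09, -0.50 ± 0.13, 0.0345) and PSMA7 (9.62 and 9.97, -0.35 ± 0.06, 0.00144) were lower. Mean PSMA7 was 9.40 in CALR and 9.85 in CANX, against 9.80 in MCFD2. Mean PSMC4 was 6.29 in CALR and 6.90 in CANX, against 6.54 in MCFD2. In both genes CANX thus lay above 1 of the lines it was set against. The median log2 difference was -0.13, against 0.00 for all tested genes, and it was positive in 9 of 42. With voom 1 was higher and 6 were lower (14.9% of all genes passed). PSMC4 lost the call without any 1 of the 6 CANX and CALR libraries (adjusted p 0.0597 to 0.114), PSMG3 lost it without CALR replicate 3 (0.0592), and without that library 1 call was left.

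Line by line, a moderated F test over the 8 knockouts, added after values had been seen, found that 9 of 42 genes differed among them (13.2% of all tested genes did): PSMA7 (adjusted p = 0.00112), PSMA4 (0.00283), PSMB5 (0.00563), PSMC4 (0.00752), PSMC1 (0.00845), PSMC5 (0.0316), PSMD4 (0.0412), PSMB2 (0.0423) and PSME4 (0.0427). The count fell to 5 without GABARAP replicate 3 or GABARAPL2 replicate 1, and voom gave 29, where 42.1% of all genes passed. PSMA7 had the smallest spread within lines among these, with a pooled SD of 0.10 against an SD of 0.22 between the means of the lines. Its log2 levels in the CALR knockout were 9.37, 9.37 and 9.45. In the other 21 knockout libraries they ran from 9.57 to 10.09, so that CALR did not overlap the rest.

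Among the knockouts CALR and MCFD2 each had the lowest mean level of several subunits. The median log2 difference of the 42 genes from the other 7 knockouts was -0.13 for CALR and -0.28 for MCFD2. In CALR 4 genes were lower and 0 higher than in the other 7 (2.94% of all tested genes passed). They were PSMC4 (-0.78 ± 0.17, limma adjusted p = 0.0129), PSMD8, a lid subunit (-0.70 ± 0.17, 0.0204), PSMA7 (-0.56 ± 0.08, 0.000154) and PSMB5 (-0.43 ± 0.11, 0.0284). PSMC4 was at 6.15, 6.29 and 6.41 and PSMD8 at 4.26, 4.61 and 4.67 in the 3 CALR libraries. PSMB5 was at 8.18, 8.25 and 8.23, and PSMD8 and PSMA7 did not overlap the other lines. Without CALR replicate 1, 2 or 3 the calls left were 1, 1 and 2, and PSMA7 passed each time. With voom 1 gene was higher and 9 were lower (11.3% and 6.82% of all genes). The median difference of the tested genes within 2 Mb of PSMA7 was -0.10 (39 genes), of PSMB5 -0.23 (45), of PSMC4 -0.36 (60) and of PSMD8 -0.30 (65). Of these neighbours 26, 32, 50 and 50 were lower. PSMC4 and PSMD8 both lie on chromosome 19, starting at 39971005 and 38374536. Each is thus within 2 Mb of the other, and their windows overlap.

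In the MCFD2 knockout 2 genes were lower and 0 higher than in the other 7 (5.03% of all tested genes passed). PSMA4 was at 6.33, 6.33 and 5.92 (-0.73 ± 0.14, limma adjusted p = 0.00259). PSME4, which encodes the PA200 activator, was at 3.22, 3.44 and 3.54 (-0.85 ± 0.19, adjusted p = 0.00812), below all other knockout libraries. The 13 tested genes within 2 Mb of PSME4 had a median of -0.60, and those near PSMA4 (24 genes) of -0.06. PSME4 lay on chromosome 2 from 53864067 to 53970840. PSME4 lost the call without MCFD2 replicate 1 (-0.77, adjusted p = 0.0884) and PSMA4 without replicate 3 (-0.59, adjusted p = 0.0515), leaving 1 gene each. With voom 7 were lower and 0 higher (5.97% and 11.7% of all genes).

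The GABARAPL2 knockout had genes that moved both ways. Against the other 7, 3 were higher and 2 lower (4.14% of all tested genes passed), and none of the 5 overlapped the other lines. Overlap is given for these 5 genes only and not over all tested genes. PSMB3, a beta subunit, was at 10.63, 10.62 and 10.62, and at 8.23 to 9.78 in the other 21 knockout libraries (1.63 ± 0.34, limma adjusted p = 0.00687). PSMB2, also a beta subunit, was at 6.90, 6.84 and 6.86 (0.97 ± 0.22, 0.0108), and PSMD11, a lid subunit, at 6.54, 6.51 and 6.15 (1.13 ± 0.29, 0.0238). PSMC1 was at 7.91, 7.88 and 8.15 (-1.08 ± 0.22, 0.00671) and PSMG4, a core assembly chaperone, at 5.38, 5.37 and 5.44 (-0.75 ± 0.20, 0.0372).

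PSMA5 had levels of 6.85, 7.32 and 7.06 in the GABARAPL2 knockout, above all other knockout libraries, and did not pass. The neighbours of PSMB3 (43 genes), PSMB2 (25) and PSMD11 (27) within 2 Mb had medians of 0.13, 0.10 and 0.06, and those of PSMC1 (17) and PSMG4 (17) of -0.35 and -0.33. With 1 GABARAPL2 library left out, 0, 0 and 1 genes passed for replicates 1, 2 and 3, the last being PSMC1. The size of the PSMB3 difference stayed at 1.62 or 1.63 in these fits, with adjusted p from 0.0574 to 0.0605. With voom 11 genes were higher and 9 lower (15.5% and 11.1% of all genes).

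**Figure D4:**
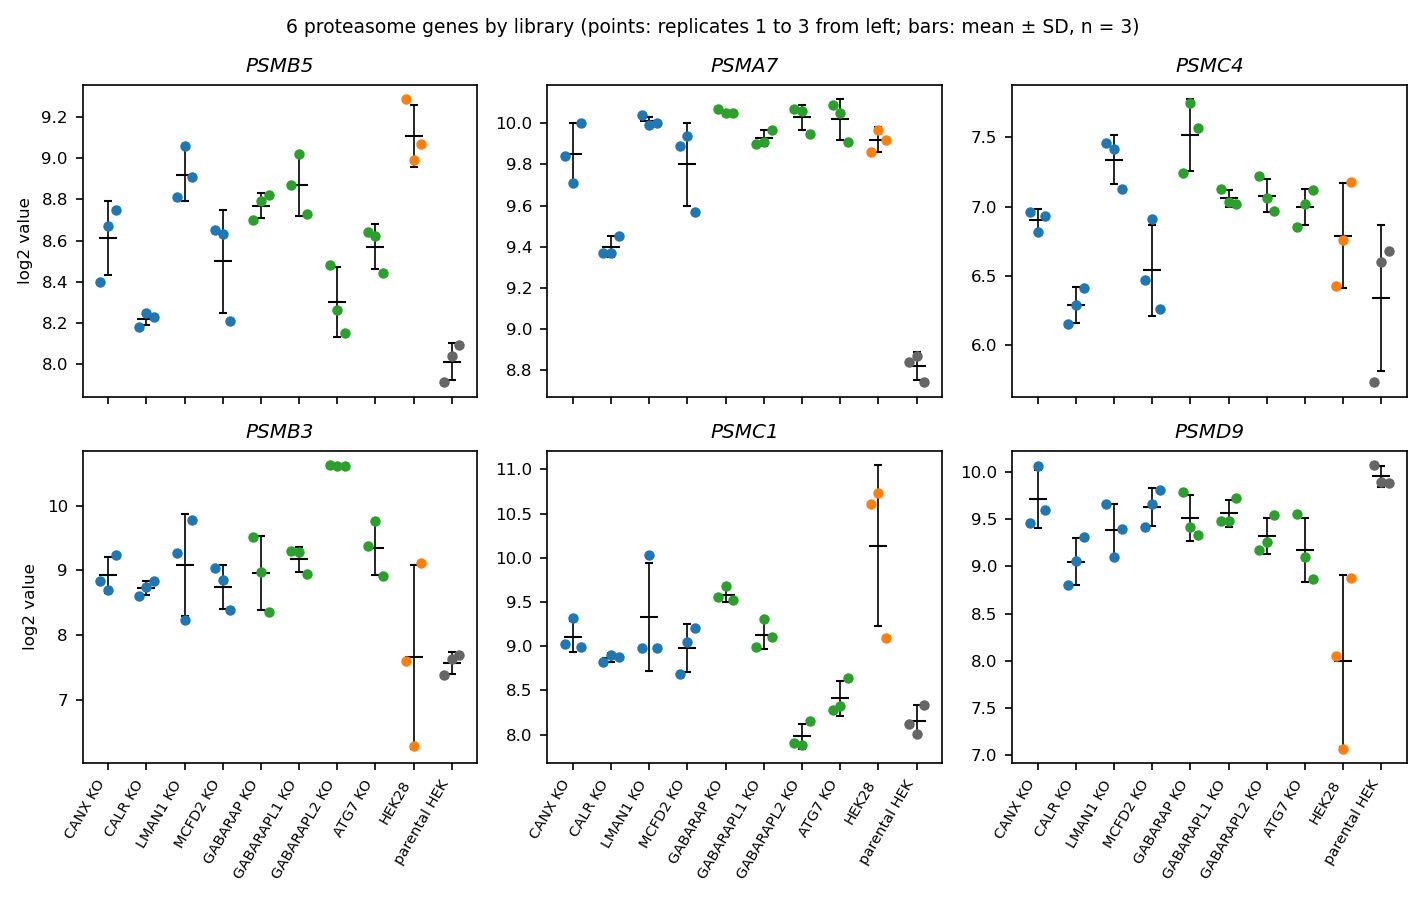
Log2 levels of 6 proteasome genes in each library, by group, as points with the mean and SD (n = 3). PSMB3 is high in the GABARAPL2 knockout and PSMA7 low in the CALR knockout, and PSMA7 is at 8.74 to 8.87 in the parental line, below all other groups.

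Of the remaining 5 lines, GABARAP gave 1 higher gene against the other 7, PSMC4 at 7.24, 7.75 and 7.57 (0.64 ± 0.17, limma adjusted p = 0.0442, 2.65% of all tested genes passed). That call was lost in 21 of the 24 fits without 1 library, among them those without each GABARAP replicate. With voom 6 genes were higher and 1 lower (8.34% of all genes passed). CANX, LMAN1, GABARAPL1 and ATG7 gave 0 genes by limma, where 1.47%, 1.05%, 0.355% and 1.43% of all tested genes passed. At an unadjusted p under 0.05 there were 2, 10, 4 and 6, and with voom 1, 3, 1 and 1 passed (6.06%, 4.93%, 1.76% and 2.25% of all genes). A count of 0 does not show that the 42 genes did not differ.

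**Figure D5:**
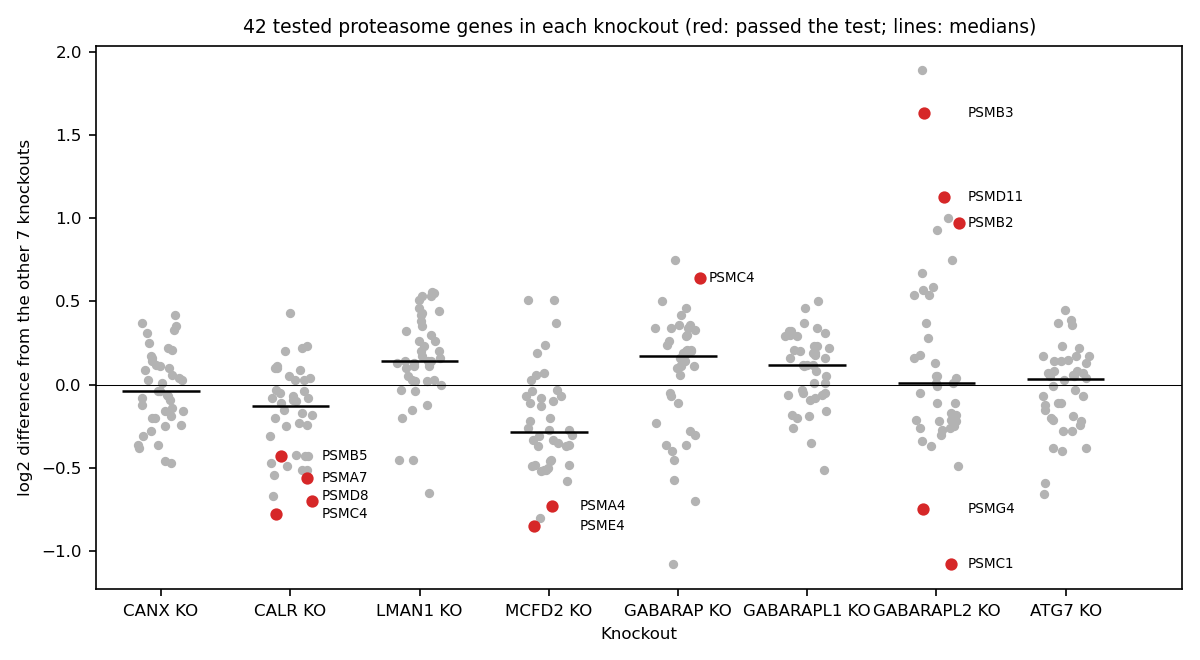
Log2 difference of the 42 tested proteasome genes between each knockout and the other 7 (points), with the genes that passed at an adjusted p under 0.05 marked. The medians run from -0.28 (MCFD2) to 0.17 (GABARAP), and the widest range, -1.08 to 1.89, is that of GABARAPL2.

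Messages of the 3 catalytic subunits were followed in every line. Mean log2 levels of PSMB5 were 9.11 ± 0.15 (SD, n = 3) in HEK28, 8.92 ± 0.13 in LMAN1, 8.87 ± 0.15 in GABARAPL1, 8.77 ± 0.06 in GABARAP, 8.61 ± 0.18 in CANX, 8.57 ± 0.11 in ATG7, 8.50 ± 0.25 in MCFD2, 8.30 ± 0.17 in GABARAPL2, 8.22 ± 0.03 in CALR and 8.01 ± 0.09 in the parental line. Neighbours in this order lie within their SDs of each other, apart from CALR and the parental line. HEK28 replicates 1 and 3, at 9.29 and 9.07, were above the highest knockout library (9.06). PSMB5 was thus lower than HEK28 in all 8 knockout means, and passed in 5 of the 8 comparisons, all as lower. It was also lower in all 8 without HEK28 replicates 1 and 2. HEK28 is then 1 library at 9.07, above every knockout library, so all 8 signs follow from that value.

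PSMB6 and PSMB7 did not pass in any of the 8 comparisons with HEK28. PSMB6 was at 4.90 ± 0.30 in LMAN1, 4.90 ± 0.07 in GABARAP, 4.69 ± 0.11 in GABARAPL1, 4.55 ± 0.13 in CANX, 4.52 ± 0.27 in ATG7, 4.52 ± 0.14 in CALR, 4.45 ± 0.12 in HEK28, 4.32 ± 0.11 in GABARAPL2, 4.30 ± 0.20 in MCFD2 and 2.96 ± 0.37 in the parental line. PSMB7 was at 6.01 ± 0.07 in GABARAP, 5.79 ± 0.17 in HEK28, 5.73 ± 0.14 in GABARAPL1, 5.70 ± 0.04 in LMAN1, 5.62 ± 0.10 in GABARAPL2, 5.53 ± 0.07 in CALR, 5.44 ± 0.24 in CANX, 5.34 ± 0.13 in MCFD2, 5.25 ± 0.38 in ATG7 and 4.06 ± 0.45 in the parental line. In both the parental line is the lowest group by more than 1 on the log2 scale, and the other 9 form a run of overlapping groups. PSMB9, the interferon-inducible counterpart of PSMB6, had only 0 to 29 reads per library, 8 in all of HEK28 and 8 in all of the parental line. It fell under the filter on low values and was not tested, so whether it differed is not known.

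Genes around the proteasome were listed as well. Of 11 tested proteasome-bound proteins without a PSM symbol, HEK28 against the parental line gave 3 higher and 0 lower, where 16.8% of all tested genes were higher and 15.2% lower, with UCHL5, a 19S-bound deubiquitinase, at 2.26 ± 0.27 (limma adjusted p = 7.55e-07). Of 8 regulators of proteasome gene transcription 2 were higher and 2 lower. DDI2, the protease that releases NFE2L1, was higher (1.53 ± 0.26, adjusted p = 6.95e-05), and NFE2L1 itself was at -0.14 ± 0.31 (0.773). MAFG (-2.82 ± 0.65, 0.00179), a DNA-binding partner of NFE2L1, and KEAP1 (-1.38 ± 0.28, 0.000582), the repressor of NFE2L2, were lower. Without HEK28 replicates 1 and 2 the differences were 1.86 (adjusted p = 0.000787 in limma) for UCHL5, 0.75 (0.0632) for DDI2, -0.22 (0.803) for MAFG and -0.99 (0.0152) for KEAP1. Of 18 ubiquitin, shuttle and VCP genes 4 were higher and 2 lower, of 7 NFE2L2 targets outside the proteasome 1 and 0, and of 7 interferon-induced antigen processing genes 0 and 4. The counts of all these lists use all 3 HEK28 libraries and are not given without replicates 1 and 2. Between the autophagy-gene and the secretory-gene knockouts, and between the lectin chaperone knockouts and the other 6, no gene of these 5 lists passed in limma (4.88% and 3.62% of all tested genes did).

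In the knockouts against HEK28, MAFG was higher in 7 of 8 lines, by 2.14 to 2.94, and USP14, a 19S-bound deubiquitinase, was lower in 5, by -0.57 to -1.69. DDI2 was lower in 4, by -0.83 to -1.19. Among ubiquitin genes UBA1, the activating enzyme, was higher in 7 lines (1.18 to 1.48), UBQLN1, a shuttle, in 6 (1.55 to 1.94), and UBXN1, a VCP cofactor, was lower in 5 (-0.69 to -1.08). All of these share the HEK28 libraries described above. Without HEK28 replicates 1 and 2 MAFG, DDI2, UBA1, UBQLN1 and UBXN1 passed in 0 of the 8 lines, with differences of MAFG from -0.47 to 0.34 and of UBA1 from -0.38 to -0.01. USP14 then passed in 1, the GABARAP knockout (-1.68, limma adjusted p = 0.00191).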

How the data were processed

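Messenger RNA of 30 libraries (10 groups of 3, as the labels give them) had been read by 3' RNA-seq on an Illumina instrument. Per the submitters' processing notes, hg38 was the build, and TopHat2 and Bowtie (alignment), cutadapt and FastQC were used. The counter, gene annotation and normalisation were not given in the sources used here. The authors deposited 1 table of log2 values for 16975 genes. In all libraries these values equal the log2 of (whole reads + 0.5) per gene length and library size, up to a constant, so the deposited log2 values are levels per unit length. Reads were recovered from their steps for 16871 genes (100.0% of values rebuilt within rounding), and in simulated data 99.96% of reads were recovered.

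The deposited log2 values were tested with limma 3.58.1 (R 4.3.3, trended and robust empirical Bayes) in 1 model over the 30 libraries, with Benjamini-Hochberg adjustment over 11275 genes and a threshold of 0.05. A tested gene had at least 17.5 CPM (counts per 1000000 reads, 10 reads at the median depth) in 3 libraries and 15 reads in all. The 22 comparisons were also run with limma's voom on recovered reads, with quantile scaling, without the filter, with a pseudocount of 1, on their own samples, without each library in turn and without HEK28 replicates 1 and 2. The main limma fit was run on simulated reads for CALR against HEK28 and for autophagy-gene against secretory-gene knockouts. It recovered 47% and 88% of 2-fold changes and 88% and 99% of 4-fold changes. Of the unchanged genes 19 and 1 were called. The dispersion of the simulated reads (0.00428) came from the knockout libraries, so the spread among HEK28 libraries was not simulated. The other comparisons and settings were not simulated. Libraries sharing a number did not deviate together (135 pairs, r from -0.251 to 0.379). No 2 replicates agreed within sampling noise: in genes with at least 20 reads chi-square over its degrees of freedom was 1.51 or more in 30 pairs. Depth limits genes with few reads.

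The proteasome genes, their roles and the related lists were chosen with earlier results of these data known. Named are genes that passed, at most the 6 largest in each direction of a comparison, the catalytic subunits and PSMB9 in every group, and, of each related list, up to 3 genes that passed in at least 2 knockouts against HEK28. Motifs were searched in 250 bases before each start in RefSeq promoters.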

Additional observations from a re-analysis of the deposited data

How the results depend on the processing

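Counts of proteasome genes that passed moved with several settings. Without HEK28 replicates 1 and 2 the counts against HEK28 were 0 for CANX, LMAN1, GABARAP, GABARAPL1 and ATG7, 3 for CALR, 2 for MCFD2, 2 for GABARAPL2, 0 for the 4 autophagy-gene knockouts and 1 for the 2 lectin chaperone knockouts. In the same setting 21 named log2 differences changed sign. They were PSMD10 -0.08, PSMA2 -0.02, PSMB4 0.00 and PSMC1 0.02 in CANX, PSMB1 -0.14 and PSMB4 -0.02 in CALR, PSMB4 -0.09 in LMAN1, PSMB1 -0.09 and PSMB4 -0.20 in GABARAP, PSMB1 -0.21, PSMB4 -0.17 and PSMC1 0.04 in GABARAPL1, and PSMA1 -0.12 and PSMB4 -0.16 in ATG7. In the 4 autophagy-gene knockouts they were PSMA5 -0.02, PSMA1 -0.10 and PSMA2 -0.11, and in the 2 lectin chaperone knockouts PSMA1 -0.12, PSMB4 -0.01, PSMB1 -0.19 and PSMB3 -0.28. With 1 library left out at a time, the counts against HEK28 ran from 3 to 25 (CANX), 8 to 25 (CALR), 0 to 22 (LMAN1), 6 to 21 (MCFD2), 1 to 22 (GABARAP), 1 to 23 (GABARAPL1), 13 to 26 (GABARAPL2), 5 to 24 (ATG7), 7 to 28 (autophagy genes) and 8 to 29 (lectin chaperones). Those of HEK28 against the parental line ran from 16 to 23, and of the 8 knockouts against it from 22 to 30. Among the knockouts they ran from 1 to 4 (autophagy against secretory genes), 1 to 3 (lectin chaperones against the other 6), 5 to 8 (any difference), and against the other 7 from 1 to 4 (CALR), 1 to 2 (MCFD2), 0 to 2 (GABARAP), 0 to 6 (GABARAPL2) and 0 to 0 (CANX, LMAN1, GABARAPL1 and ATG7). Fitted on its own samples only, each of the 8 knockouts gave 0 against HEK28, the lectin chaperones 2 and HEK28 against the parental line 8. Against the other 7, CALR then gave 7, LMAN1 1, MCFD2 4, GABARAP 4, GABARAPL2 9 and ATG7 2, and any difference 22. With voom LMAN1 gave 9 against HEK28, autophagy against secretory genes 8, and the lectin chaperones against the other 6 gave 7. Against the other 7, voom gave CANX 1, CALR 10, LMAN1 3, MCFD2 7, GABARAP 7, GABARAPL1 1, GABARAPL2 20 and ATG7 1, and any difference 29. Without the filter on low values autophagy against secretory genes gave 1 and GABARAP against the other 7 gave 0, which became 2 with quantile scaling. The replicate block (the number as a term) gave 3 calls in place of 5 for autophagy against secretory genes. Of 127 gene differences 3 lost their call with the block and 0 with a pseudocount of 1. The cause of these changes was not tested. No share of all tested genes is given for the counts with 1 library left out.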
